A study of Mus musculus with 20 samples.

Results

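The neutrophil-attracting CXC chemokine genes Cxcl1, Cxcl2, Cxcl3, Cxcl5 and Cxcl16 were followed in cultured mouse macrophages. They were chosen by gene name, and are 5 of the 78409 genes listed in the expression matrix, each matched to 1 gene identifier. The matrix held 20 libraries of bone marrow-derived macrophages (BMDMs) from female wild-type C57BL/6J mice, treated on day 7 of culture, with 4 libraries in each of 5 groups. Cells received PBS or fractions of bronchoalveolar lavage fluid (BALF) from mice with ovalbumin-induced airway inflammation that were either RNY1+/+ or RNY1-/-. RNY1 is a small non-coding Y RNA, and the knockout is a whole-body CRISPR deletion in the mice that gave the fluid, so the treated macrophages themselves carried RNY1 in every group and their own reads cannot check the genotype label. The fraction enriched in extracellular vesicles (EVFx) was dosed at 35000000 particles per µL, and the fraction enriched in protein (ProteinFx) at 0.75 µg protein per µL. Both doses were equal between genotypes but are in different units, so EVFx and ProteinFx are compared only at the doses used. Nothing in the labels tells whether replicates were separate BALF pools, donors or only wells, and p-values measure the spread between these libraries, which may be technical. All library names share 1 prefix, and whether it marks a batch is not said.

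CXC chemokines are small secreted proteins that guide leukocytes through G protein-coupled receptors. CXCL1 (KC), CXCL2 (MIP-2), CXCL3 and CXCL5 (LIX) carry an ELR motif and bind CXCR2, through which neutrophils are drawn into inflamed tissue. Macrophages make several of them soon after sensing microbial products, IL-1 or TNF, through transcription driven by NF-kB and through changes in how fast their AU-rich mRNAs decay. CXCL16 is different. It is a membrane-anchored chemokine and scavenger receptor that is shed by ADAM10 and ADAM17, lacks the ELR motif, and binds CXCR6 on T and NKT cells. The description "neutrophil-attracting" therefore fits 4 of the 5 genes, and Cxcl16 is reported separately below.

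Promoter sequences are shown for the members that have a RefSeq promoter window (GRCm38.p6, 250 bases before to 50 bases after the start). These were 3 of the 5 genes by symbol, Cxcl1, Cxcl2 and Cxcl3, and Cxcl5 and Cxcl16 are named only. Each window held the NF-kB consensus (kB) motif, and the 10 matching bases, in capitals, were identical in all 3. The lines give 30 bases around the match on the plus strand of chromosome 5.
Cxcl1: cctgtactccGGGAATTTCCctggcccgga
Cxcl2: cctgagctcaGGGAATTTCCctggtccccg
Cxcl3: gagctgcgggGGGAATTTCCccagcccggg
These stretches lie at chr5:90891164-90891193 (Cxcl1), chr5:90903792-90903821 (Cxcl2) and chr5:90786018-90786047 (Cxcl3). The capitals begin 71, 97 and 73 bases before the start of Cxcl1, Cxcl2 and Cxcl3. The motif is close to a palindrome, and each of these sites was also matched on the opposite strand, with which it overlaps. On either strand, 8.46% of the 32851 promoter windows in the table held a match to the consensus, and 29 windows (0.0883%) held the 10 bases in capitals. A match describes the letters only and is no evidence of binding in these cells.

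Total counts, which stand for molecules because duplicates were removed by molecular identifier, ranged from 2510005 to 8277366 per library (median 5456425). Levels are given as CPM, the count scaled to a common library total, and at these depths 3 counts, the floor used here, correspond to 0.575 CPM on average in the PBS libraries. All 8 macrophage markers examined (including Adgre1, Cd68 and Lyz2) were above 1 CPM in every group, with a summed level of 8510 to 14077 CPM over the libraries. Among 9 neutrophil markers, S100a8 and S100a9 were the abundant ones and Ly6g was at 0 in all but 1 ProteinFx library; their summed level was 282 to 333 CPM in PBS, 143 to 265 CPM over both EVFx groups and 198 to 354 CPM over both ProteinFx groups. T cell, B cell, eosinophil and dendritic cell lists each summed to under 4 CPM in every library, fibroblast markers to 10.8 to 51.4 CPM and epithelial markers to 5.07 to 32.1 CPM, with the highest value of both in PBS. The 3 housekeeping genes Rab14, Arpc2 and Cltc were called in none of the 9 comparisons. The mean squared difference between 2 libraries of a group was 2.47 to 39.2 times what counting noise alone would give, so none was 1 library read again. Whether 2 libraries came from 1 sample is not settled by this ratio. The 4 RNY1-/- ProteinFx libraries fell into 2 pairs, replicates 1 and 2 (a ratio of 3.80) and replicates 3 and 4 (2.50), with ratios of 13.9 to 16.9 across the pairs, and the calls that rest on this group are also given below without either pair. The pairs differed in depth, with totals of 5293171 and 7149366 for replicates 1 and 2 and 2510005 and 3855450 for replicates 3 and 4. The part of depth in this split was not tested. PBS replicate 3 also stood apart from the other PBS libraries, at ratios of 18.4 to 39.2.

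The first question was which chemokine genes the BALF fractions switched on. Macrophages given RNY1+/+ EVFx had higher Cxcl1, Cxcl2, Cxcl3 and Cxcl16 than PBS-treated cells. A gene was called when its adjusted p in edgeR was under 0.05 and its absolute log2 fold change above 1. The 4 members that passed the filter on low values were called higher, beside 8.24% of the 10797 genes tested, and Cxcl5 did not pass the filter. Cxcl1 and Cxcl3 passed only through the treated libraries, where they are high, so these counts are a description. RNY1-/- EVFx raised the same 4 genes, where 9.02% of genes were called higher. RNY1+/+ ProteinFx raised Cxcl2, Cxcl3 and Cxcl16, the 3 members tested, against 8.96% of genes. RNY1-/- ProteinFx raised Cxcl2 and Cxcl16, the 2 members tested, against 6.31% of genes. In bulk libraries, more cells making a transcript and more transcript per cell cannot be told apart. These 4 comparisons share the PBS libraries. Cxcl2 and Cxcl16 were still called in RNY1-/- ProteinFx vs PBS without RNY1-/- ProteinFx replicates 1 and 2 (log2 fold changes 2.84 and 1.71) and without replicates 3 and 4 (2.07 and 2.18).

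**Figure D1:**
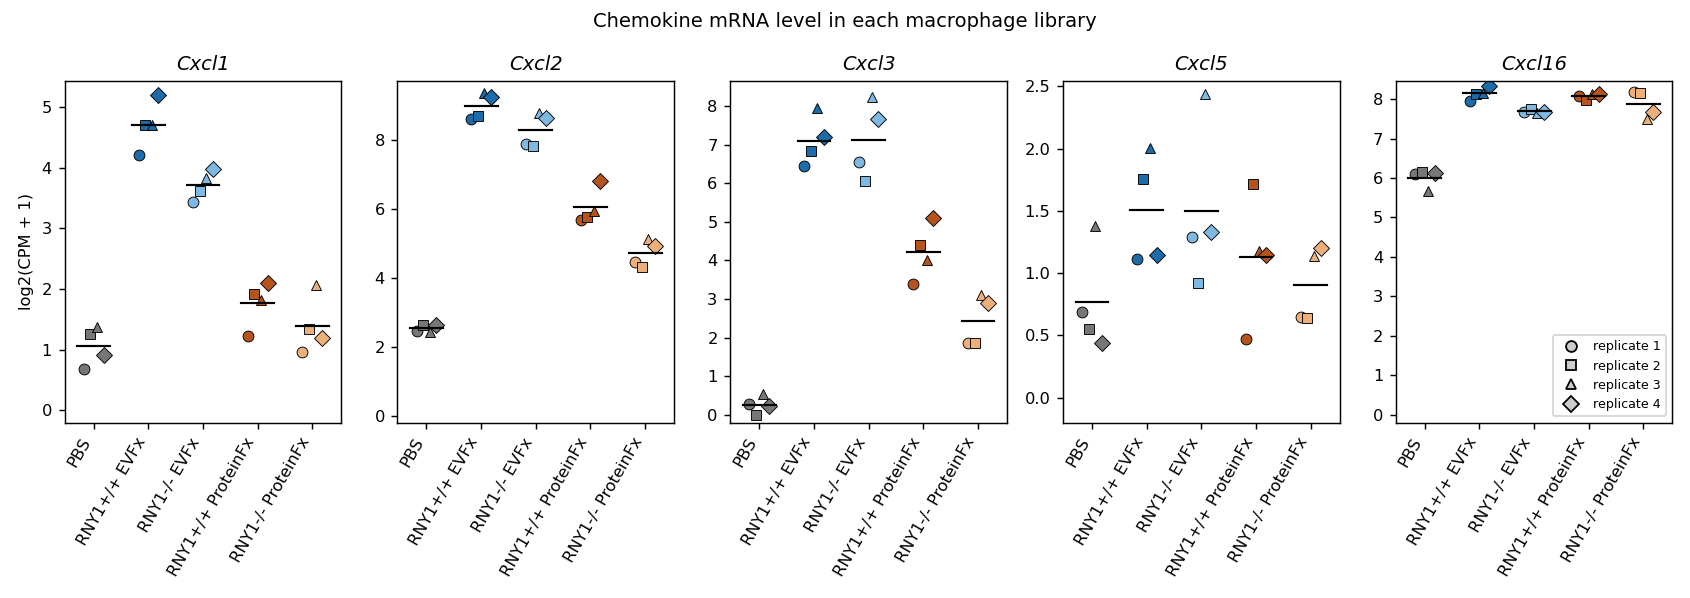
Level of each chemokine gene in the 20 libraries, as log2(CPM + 1) on the vertical axis, with the 5 treatment groups along the horizontal axis, 1 marker shape per replicate number and a bar at the mean of the 4 log values. Cxcl1, Cxcl2 and Cxcl3 are highest in the EVFx groups, whereas Cxcl16 sits at a like height in all 4 groups given BALF, and Cxcl5 stays near the floor throughout. The vertical scales differ between genes.

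Cxcl2, which encodes the early neutrophil attractant MIP-2, responded to all 4 fractions. In PBS it was low and even, at 4.51, 5.25, 4.35 and 5.16 CPM in replicates 1 to 4. RNY1+/+ EVFx brought it to 388, 418, 658 and 602 CPM, and RNY1-/- EVFx to 238, 227, 444 and 394 CPM. No EVFx library came near the PBS range, and the mean was 107-fold above PBS with RNY1+/+ EVFx (log2 fold change 6.91 ± 0.23 SE, adjusted p 6.8e-09) and 67.6-fold above it with RNY1-/- EVFx (6.30 ± 0.29, adjusted p 3.4e-08). The ProteinFx levels were lower but still clear of PBS, at 50.7, 53.0, 60.6 and 111 CPM for RNY1+/+ and 21.2, 18.9, 34.3 and 29.6 CPM for RNY1-/-. The log2 fold changes over PBS were 4.00 ± 0.29 (adjusted p 6.7e-07) and 2.47 ± 0.24 (adjusted p 3.9e-05). In order of mean level, RNY1+/+ EVFx (517 CPM) stood first, then RNY1-/- EVFx (326), RNY1+/+ ProteinFx (68.7), RNY1-/- ProteinFx (26.0) and PBS (4.82). Only the first 2 of these overlapped in range.

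Cxcl3, whose product acts on the same receptor, went from below the floor to a level well above it. PBS replicates 1 to 4 had 0.20, 0, 0.46 and 0.18 CPM, each at or under 3 counts. With RNY1+/+ EVFx the libraries had 86.7, 113, 246 and 145 CPM, and with RNY1-/- EVFx 92.9, 66.2, 301 and 203 CPM. Since no PBS library rose above the floor, the rise is given as a lower bound, at least 257-fold with RNY1+/+ EVFx and at least 288-fold with RNY1-/- EVFx, computed on mean CPM against the mean floor of the PBS libraries. RNY1+/+ ProteinFx gave 9.57, 20.0, 15.1 and 33.5 CPM, at least 34.0-fold above PBS. All 3 comparisons were called, with adjusted p of 1.9e-07, 1.7e-06 and 4.7e-06. RNY1-/- ProteinFx left Cxcl3 at 2.64, 2.66, 7.57 and 6.48 CPM, above every PBS library and at least 8.42-fold above the floor, but the gene fell under the limit of 3 CPM on the mean of these 8 libraries and was not tested in the fit. An exact two-sided permutation test on CPM gave p = 0.0286, the smallest value that 4 against 4 libraries allow. Without any filter, edgeR gave a log2 fold change of 4.49 ± 0.54 (adjusted p 4.5e-13), a size that depends on how a count of 0 is treated.

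Cxcl1 responded to EVFx and far less to ProteinFx. Its PBS values were 0.61, 1.39, 1.60 and 0.89 CPM. RNY1+/+ EVFx raised it to 17.6, 25.1, 25.0 and 35.9 CPM, 23.1-fold above the PBS mean (log2 fold change 4.68 ± 0.31, adjusted p 5.1e-07). RNY1-/- EVFx raised it to 9.85, 11.3, 13.3 and 14.8 CPM, well above PBS (3.66 ± 0.28, adjusted p 1.2e-06). The ProteinFx values, 1.34, 2.79, 2.51 and 3.30 CPM for RNY1+/+ and 0.94, 1.54, 3.19 and 1.30 CPM for RNY1-/-, overlapped those of PBS. Cxcl1 was under the CPM limit in both of these fits, and exact two-sided permutation tests gave p = 0.0857 for RNY1+/+ and p = 0.371 for RNY1-/-. Without any filter, edgeR gave a log2 fold change for Cxcl1 of 1.29 ± 0.42 (adjusted p 0.011) in RNY1+/+ ProteinFx vs PBS and 0.58 ± 0.48 (adjusted p 0.50) in RNY1-/- ProteinFx vs PBS. At 3 to 19 counts per library, whether Cxcl1 differed with RNY1+/+ ProteinFx, where the ratio of means was 2.21, thus depends on the filter and on the test.

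Cxcl5, the fourth ELR chemokine, was scarcely detected. Its lowest and highest libraries had 0.36 and 1.60 CPM in PBS, 1.16 and 3.00 CPM with RNY1+/+ EVFx, 0.89 and 4.43 CPM with RNY1-/- EVFx, 0.38 and 2.28 CPM with RNY1+/+ ProteinFx, and 0.56 and 1.30 CPM with RNY1-/- ProteinFx. Every group overlapped every other in range. Group means ran from 0.759 ± 0.571 CPM (SD, n = 4) in PBS to 2.07 ± 1.60 CPM with RNY1-/- EVFx. Cxcl5 passed the filter in none of the comparisons. Over its 8 exact two-sided permutation tests, p was 0.0857 for RNY1+/+ EVFx against PBS, 0.114 for RNY1-/- EVFx against PBS and 0.143 or more in the others. Without any filter, edgeR gave a log2 fold change of 1.61 ± 0.44 (adjusted p 0.0032) for RNY1+/+ EVFx against PBS and 1.62 ± 0.47 (adjusted p 0.0034) for RNY1-/- EVFx against PBS. It gave -1.36 ± 0.47 (adjusted p 0.030) in RNY1-/- ProteinFx vs RNY1-/- EVFx. A difference for Cxcl5 therefore depends on the filter and on the test. The 12 permutation tests reported for Cxcl1, Cxcl3 and Cxcl5 were not adjusted for their number.

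Cxcl16, the CXCR6 ligand, behaved unlike the ELR genes. It was already at 67.2, 70.1, 50.1 and 69.0 CPM in PBS. It reached 248, 278, 287 and 320 CPM with RNY1+/+ EVFx and 204, 215, 199 and 203 CPM with RNY1-/- EVFx. Values with RNY1+/+ ProteinFx were 269, 251, 282 and 277 CPM, and those with RNY1-/- ProteinFx were 289, 283, 180 and 203 CPM. Every library given BALF lay above every PBS library. The log2 fold changes over PBS kept to a narrow range, 2.32 ± 0.13, 1.92 ± 0.12, 2.24 ± 0.13 and 1.96 ± 0.17 in the order of groups above (adjusted p 1.8e-07, 3.3e-07, 8.9e-08 and 1.6e-05). In the order of mean levels, RNY1+/+ EVFx (283 CPM), RNY1+/+ ProteinFx (270), RNY1-/- ProteinFx (239) and RNY1-/- EVFx (205), each neighbouring pair overlapped in range. Groups further apart did not all overlap. The 199 to 215 CPM of RNY1-/- EVFx lay below the 248 to 320 CPM of RNY1+/+ EVFx and the 251 to 282 CPM of RNY1+/+ ProteinFx.

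**Figure D2:**
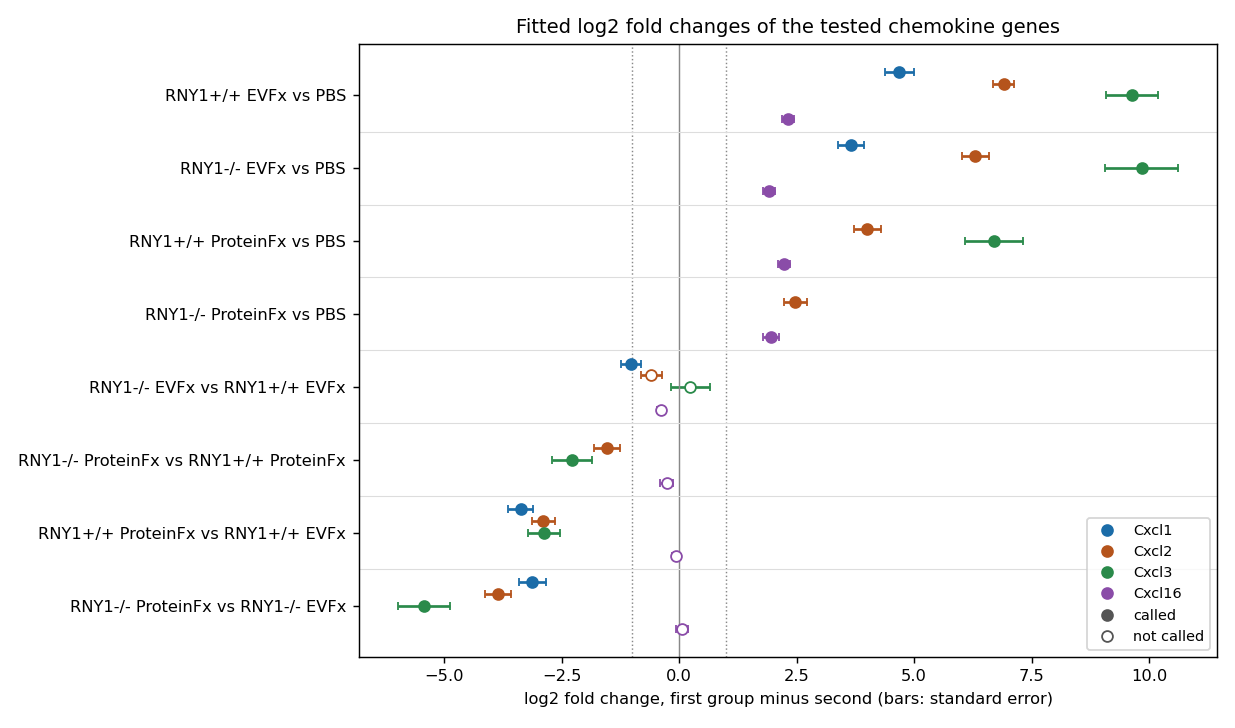
Fitted log2 fold changes (horizontal axis, first group minus second) of Cxcl1, Cxcl2, Cxcl3 and Cxcl16 in the 8 comparisons of 2 groups, with bars for the standard error, filled points for genes called and open points for genes not called. Dotted lines mark a change of 1 in either direction, genes under the filter have no point, and the Cxcl3 values against PBS depend on how a count of 0 is treated and are no bound. Cxcl1, Cxcl2 and Cxcl3 lie below 0 in both comparisons of ProteinFx with EVFx and Cxcl16 lies at 0.

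At the doses used, ProteinFx left lower levels of the 3 responding ELR chemokines than EVFx did. With fluid from RNY1+/+ mice, Cxcl1 was lower by a log2 fold change of -3.37 ± 0.27 (adjusted p 9.8e-08), Cxcl2 by -2.89 ± 0.24 (1.3e-07) and Cxcl3 by -2.88 ± 0.34 (4.7e-06). Cxcl16 did not pass, at -0.07 ± 0.09 (adjusted p 0.51). Here 3 of the 4 members tested were called lower, and 6.82% of the genes tested. Cxcl1, with ProteinFx means of 2.48 and 1.74 CPM, entered both of these fits only through the EVFx libraries, so the counts of members are a description. With fluid from RNY1-/- mice the differences were -3.12 ± 0.29 for Cxcl1 (adjusted p 6.0e-06), -3.85 ± 0.28 for Cxcl2 (7.6e-07) and -5.44 ± 0.56 for Cxcl3 (1.3e-05). Cxcl16 again did not pass, at 0.05 ± 0.13 (adjusted p 0.81). Of the 4 members tested, 3 were called lower, and 4.05% of all genes. In RNY1-/- ProteinFx vs RNY1-/- EVFx all 3 were still called without ProteinFx replicates 1 and 2 (-2.66 for Cxcl1, -3.47 for Cxcl2 and -4.67 for Cxcl3) and without replicates 3 and 4 (-3.43, -4.24 and -6.15). Neither range of Cxcl1, Cxcl2 or Cxcl3 in ProteinFx reached into that of EVFx from the same genotype.

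The central question of the design was whether fluid from RNY1-/- mice acted differently from RNY1+/+ fluid. For EVFx the differences in chemokine mRNA were small. Cxcl1 was lower with RNY1-/- EVFx (log2 fold change -1.02 ± 0.20, adjusted p 0.0015), and its ranges, 9.85 to 14.8 against 17.6 to 35.9 CPM, did not overlap. It was the single member called of 4 tested, and 1.98% of genes were called lower. The count of 204 became 87 without RNY1+/+ EVFx replicate 4 and 45 with trends of GC content and length removed. This call sits on the fold limit: without RNY1+/+ EVFx replicate 4 the value was -0.83, without RNY1-/- EVFx replicate 1 it was -0.91, and without RNY1-/- EVFx replicate 2 it was -0.97, each with an adjusted p of 0.0062 or less. By the adjusted p alone, Cxcl2 (-0.59 ± 0.23, adjusted p 0.042) and Cxcl16 (-0.39 ± 0.08, adjusted p 0.0017) were also lower, a limit that 26.6% of the genes tested passed in that direction. DESeq2 gave an adjusted p of 0.12 for Cxcl2. Cxcl3 did not pass (0.24 ± 0.41, adjusted p 0.65). Across genes, fold changes in this comparison fell with transcript GC content (Spearman's rho -0.654), and with trends of GC content and length removed Cxcl1 stood at -1.21 (adjusted p 0.0010).

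For ProteinFx the genotype difference fell on Cxcl2 and Cxcl3. Cxcl2 was lower with RNY1-/- ProteinFx by a log2 fold change of -1.55 ± 0.28 (adjusted p 0.0058), and all 4 libraries, at 18.9 to 34.3 CPM, lay below the 50.7 to 111 CPM of RNY1+/+. Cxcl3 was lower by -2.28 ± 0.43 (adjusted p 0.0080), with 2.64 to 7.57 CPM against 9.57 to 33.5 CPM. Cxcl16 did not pass (-0.26 ± 0.13, adjusted p 0.32), and Cxcl1 and Cxcl5 were under the filter, with p = 0.343 and p = 0.571 by the exact permutation test. So 2 of the 3 members tested were called, and 1.17% of all genes were called lower. These calls rest in part on which RNY1-/- libraries are used. Without replicates 1 and 2 the difference was -1.17 for Cxcl2 (adjusted p 0.032) and -1.55 for Cxcl3 (adjusted p 0.058, no longer called), and without replicates 3 and 4 it was -1.94 and -3.03. All 4 RNY1+/+ ProteinFx libraries were kept in these fits, and there too Cxcl2 was higher in replicates 3 and 4 than in replicates 1 and 2. Cxcl16 in replicates 1 and 2 of RNY1-/- ProteinFx, 289 and 283 CPM, was above every RNY1+/+ ProteinFx library, and in replicates 3 and 4, 180 and 203 CPM, below every such library.

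Whether the genotype difference itself differed between the fractions was tested as an interaction over the 16 libraries given BALF. Cxcl3 was called: its genotype difference was lower in ProteinFx than in EVFx by a log2 value of -2.56 ± 0.77 (adjusted p 0.020), the only call among 4 members tested, and 2.46% of genes were called in that direction and 5.33% in the other. The counts of 257 and 557 became 145 and 338 without RNY1-/- ProteinFx replicate 2, and 59 and 42 without replicates 1 and 2. The call was lost without RNY1+/+ ProteinFx replicate 4 (-2.11, adjusted p 0.061), without RNY1-/- ProteinFx replicate 1 (-2.33, adjusted p 0.055), without RNY1-/- ProteinFx replicate 2 (-2.26, adjusted p 0.067), and without both of the latter (-1.78, adjusted p 0.29). Differences in the interaction rose with GC content across genes (Spearman's rho 0.585), and with trends of GC content and length removed Cxcl3 stood at -2.24 (adjusted p 0.046). Cxcl2 had -0.97 ± 0.40 (adjusted p 0.070), Cxcl1 0.25 ± 0.53 (adjusted p 0.73) and Cxcl16 0.13 ± 0.16 (adjusted p 0.54).

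Cxcl2 and Cxcl3 have to be read together, since their transcripts share exact runs of up to 157 bases and 126 stretches of 50 bases in an annotation of GRCm38, where no other pair of the 5 genes shares any such stretch. Reads from shared stretches were divided between genes by the authors' counting. Both genes had fractional counts in the same 5 of 20 libraries and neither had them alone. How the division affects each gene's level was not tested. After the group means were removed, log2(CPM + 1) of Cxcl2 and Cxcl3 correlated at r = 0.893 over the 20 libraries. The values for Cxcl1 with Cxcl2 and with Cxcl3 were 0.613 and 0.602, and Cxcl16 had negative values with all 4 others, from -0.486 to -0.164. These describe 20 libraries in 5 groups that also differ in depth. Deviations of Cxcl3 and Cxcl16 from their group means correlated with those of log2 total count at r = -0.646 and 0.666. In both EVFx groups and in RNY1-/- ProteinFx, replicate 3 had the lowest total (4994483, 4059987 and 2510005) and the highest Cxcl2 and Cxcl3. In RNY1+/+ ProteinFx, by contrast, replicate 4 had the highest total (5763532) and the highest Cxcl2 and Cxcl3. The part of depth in this was not tested.

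**Figure D3:**
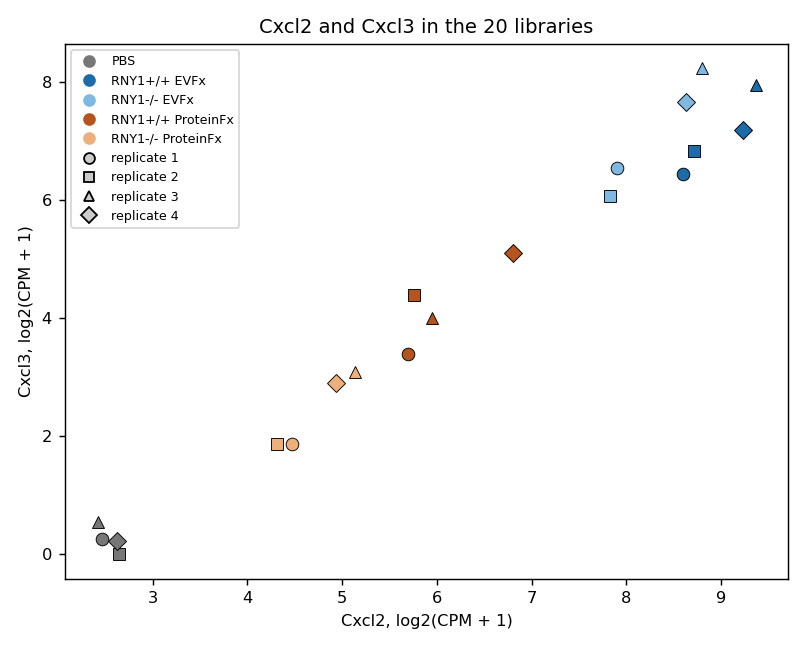
Cxcl3 against Cxcl2 in each library, both as log2(CPM + 1), with colour for the treatment group and marker shape for the replicate number. The groups line up from PBS at the lower left to both EVFx groups at the upper right, and within the EVFx groups replicate 3 is highest for both genes.

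Cxcl1, Cxcl2, Cxcl3 and Cxcl5 are neighbours on chromosome 5, in the order Cxcl5, Ppbp, Pf4, Cxcl3, Cxcl15, Cxcl1 and Cxcl2 in RefSeq. The genes between them encode platelet basic protein (Ppbp), platelet factor 4 (Pf4) and the lung chemokine CXCL15. Cxcl15 had no count in any library. Ppbp had group means of 0.269 to 0.648 CPM and was not tested. Pf4, by contrast, was abundant in every group, from 854 ± 84.8 CPM (SD, n = 4) with RNY1+/+ EVFx to 1069.7 ± 75.8 CPM with RNY1+/+ ProteinFx, and was called in none of the 9 comparisons. Its log2 fold change over PBS was -0.05 with RNY1+/+ EVFx and 0.08 with RNY1-/- EVFx, where those of Cxcl1 and Cxcl2 were over 3. The promoter windows of Ppbp, Pf4 and Cxcl15 held no match to the kB consensus on either strand. Neither did those of Il1a, Il1b, Tnf, Ccl3, Cxcl9 and Zc3h12a, which were called higher than PBS with at least 3 of the fractions, so nothing is read from the absence of a match.

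**Figure D4:**
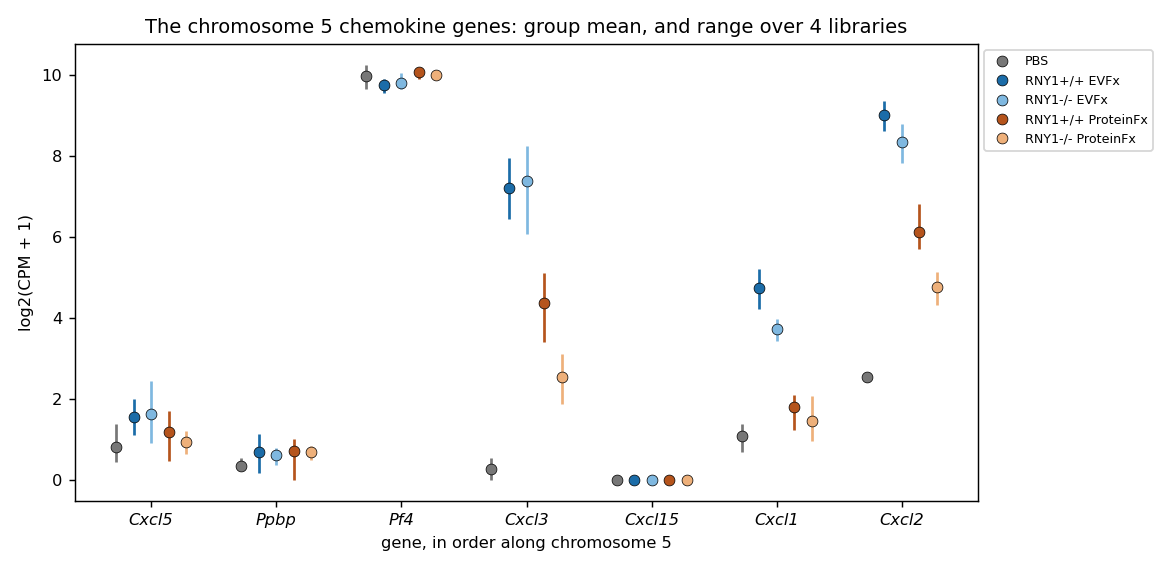
Levels, as log2(CPM + 1), of the 7 chemokine genes in their order along chromosome 5, with points at the group mean and lines over the range of the 4 libraries. Cxcl3, Cxcl1 and Cxcl2 rise with EVFx, and Pf4, which lies next to Cxcl3 on the side of Ppbp and Cxcl5, stays near 10 in all 5 groups.

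The receptors for these ligands were all but absent from the macrophages. Cxcr1, Cxcr2, Cxcr6 and Ackr1, the atypical receptor that binds many chemokines, passed the filter in no comparison, and the largest group mean among them was 0.827 CPM for Cxcr2 with RNY1-/- ProteinFx. Both proteases that shed CXCL16 were present. Adam17 had 136 ± 14.5 CPM in PBS and was called higher with RNY1-/- EVFx (log2 fold change 1.09 ± 0.11, adjusted p 1.2e-05) and RNY1+/+ ProteinFx (1.17 ± 0.11, adjusted p 7.1e-06). Under the fold limit, it was also higher by the adjusted p alone with RNY1+/+ EVFx (0.97 ± 0.11, adjusted p 3.3e-05) and RNY1-/- ProteinFx (0.86 ± 0.12, adjusted p 0.00054). Adam10 was called in no comparison, with group means of 151 to 272 CPM.

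Of the 7 NF-kB subunits and I-kappa-B proteins, all tested, those called higher than PBS numbered 4 with RNY1+/+ EVFx, 2 with RNY1-/- EVFx, 4 with RNY1+/+ ProteinFx and 2 with RNY1-/- ProteinFx. The shares of all genes called higher were 8.24%, 9.02%, 8.96% and 6.31%. Those called lower numbered 0, 1, 1 and 1, where 8.2%, 13.5%, 12.4% and 7.99% of all genes were. The median log2 fold change of the list was 1.42, 0.77, 1.05 and 0.79, beside medians of -0.03 over all genes in each comparison. Nfkbia, which encodes the inhibitor I-kappa-B alpha and is itself an NF-kB target, went from 138 ± 6.49 CPM in PBS to 1141 ± 52.5 CPM with RNY1+/+ EVFx and 901 ± 96.2 CPM with RNY1-/- EVFx. Its ProteinFx levels were 527 ± 91.4 CPM for RNY1+/+ and 285 ± 24.3 CPM for RNY1-/-, the same order of groups as Cxcl2. Nfkbiz, a nuclear I-kappa-B protein that takes part in induction of secondary NF-kB targets, had log2 fold changes over PBS of 4.38, 4.51, 3.71 and 2.28. The gene called lower in the last 3 comparisons was Rela, the p65 subunit, at log2 fold changes of -1.17, -1.27 and -1.09. Across genes, fold changes in these 3 comparisons fell with transcript GC content (Spearman's rho -0.42, -0.46 and -0.49). The Rela values are given without removal of that trend, and its part in them was not tested.

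Among 8 genes for inducing cytokines, their receptors and the adaptor MyD88, 7 were tested, and 4, 4, 4 and 2 were called higher than PBS in the same order, with none called lower. Of all genes, 8.24%, 9.02%, 8.96% and 6.31% were called higher and 8.2%, 13.5%, 12.4% and 7.99% lower. The median log2 fold change of the list was 1.72, 1.48, 1.22 and 0.81. Il1a and Il1b, which encode interleukin-1 alpha and beta, were called in all 4. Il1b rose from 0.478 ± 0.375 CPM in PBS to 49.6 ± 6.54 CPM with RNY1+/+ EVFx and 39.6 ± 31.9 CPM with RNY1+/+ ProteinFx. It passed the filter only through the treated libraries, so its calls against PBS are a description. Tnf, the gene for tumour necrosis factor, had log2 fold changes of 5.00 ± 0.20, 3.78 ± 0.19 and 2.19 ± 0.25 in the first 3 comparisons. With RNY1-/- ProteinFx it was under the fold limit and not called (0.81 ± 0.22, adjusted p 0.018). Tlr2, a receptor for bacterial lipoproteins, was called higher in the first 3 as well, at 1.72, 1.48 and 1.22, and was at 0.63 (adjusted p 0.029) with RNY1-/- ProteinFx.

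The 7 factors that bind chemokine mRNAs and change their stability were all tested, and 1, 1, 2 and 2 of them were called higher than PBS and 1, 1, 0 and 0 lower. The shares of all genes were 8.24%, 9.02%, 8.96% and 6.31% higher and 8.2%, 13.5%, 12.4% and 7.99% lower, and the median log2 fold change of the list was 0.32, 0.51, 0.78 and 0.54. Zc3h12a, which encodes the ribonuclease Regnase-1, was called higher in all 4, from 4.85 ± 0.922 CPM in PBS to 26.7 ± 1.99 CPM with RNY1+/+ EVFx and 23.6 ± 5.02 CPM with RNY1+/+ ProteinFx. Zfp36l1, a decay factor for AU-rich mRNAs, was the gene called lower. It fell from 213 ± 18.1 CPM in PBS to 33.3 ± 7.09 CPM with RNY1+/+ EVFx (log2 fold change -2.50 ± 0.15, adjusted p 2.9e-07) and to 55.6 ± 14.8 CPM with RNY1-/- EVFx (-1.69 ± 0.16, adjusted p 8.1e-06), and stood at 326 ± 32.5 and 479 ± 27.4 CPM with RNY1+/+ and RNY1-/- ProteinFx. Its order of group means ran opposite to that of Cxcl1 among the 4 groups given BALF, where Cxcl1 overlapped in range between both ProteinFx groups. With PBS included it did not, since Cxcl1 was lowest in PBS and Zfp36l1 was not highest there. A link between these genes was not tested.

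**Figure D5:**
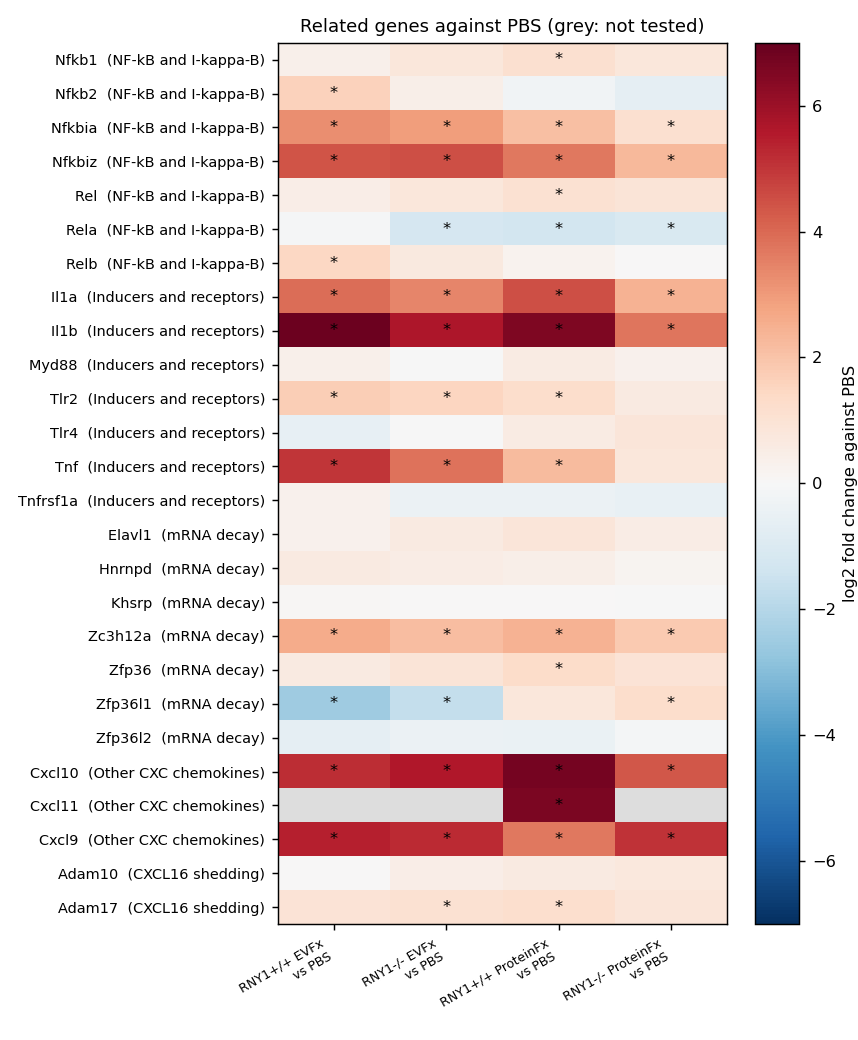
Log2 fold changes against PBS (colour) of the tested genes from 5 lists, 1 row per gene and 1 column per group given BALF, with a star where the gene was called and grey where it was not tested. Nfkbia, Nfkbiz, Il1a, Il1b, Zc3h12a, Cxcl9 and Cxcl10 are starred in all 4 columns, and Zfp36l1 is blue in the EVFx columns only.

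Of 7 other CXC chemokines listed, Cxcl9 and Cxcl10, ligands of CXCR3 that are induced by interferons, were tested in every comparison. Both were called higher than PBS with all 4 fractions. Cxcl11 passed the filter only in the comparisons of 2 groups that include RNY1+/+ ProteinFx, where it is high, so its calls are a description. Against PBS it was tested with that fraction alone, and called higher (log2 fold change 6.58 ± 0.67). Cxcl10 was highest with RNY1+/+ ProteinFx, at 459 ± 113 CPM against 155 ± 84.5 CPM with RNY1+/+ EVFx (log2 fold change 1.56 ± 0.30, adjusted p 0.00036). Cxcl11 was also higher in RNY1+/+ ProteinFx than in RNY1+/+ EVFx (2.52 ± 0.41, adjusted p 9.0e-05), whereas Cxcl9, like Cxcl1, Cxcl2 and Cxcl3, was lower (-1.75 ± 0.16, adjusted p 3.2e-07). Cxcl12, Cxcl13, Cxcl14 and Cxcl17 were not tested. Of 7 other factors that act on neutrophils, 4 were tested, of which 1, 1, 2 and 0 were called higher than PBS and 0, 1, 1 and 1 lower, too few genes to be read against the shares of all genes given above. Ccl3, the gene for MIP-1 alpha, was called higher with RNY1+/+ EVFx (2.36 ± 0.13), RNY1-/- EVFx (1.97 ± 0.13) and RNY1+/+ ProteinFx (1.03 ± 0.15), and Alox5ap, which is needed for leukotriene synthesis, was called lower in all but RNY1+/+ EVFx. There Alox5ap was lower by the adjusted p alone, under the fold limit (-0.86 ± 0.14, adjusted p 0.00045). Csf3, which encodes the granulocyte growth factor G-CSF, stayed at group means of 0.821 to 2.35 CPM and was not tested.

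The same lists were compared between genotypes. With EVFx, 2 of the 7 NF-kB genes (Nfkb2 at -1.17 and Rela at -1.08) and 2 of the 7 inducer genes tested (Il1b at -1.21 and Tnf at -1.22) were called lower with RNY1-/- fluid and none higher, where 1.98% of all genes were called lower and 0.378% higher. Fold changes in this comparison fell with GC content. The 204 genes called lower became 45 with trends of GC content and length removed, and the values of these related genes are given without that removal. With ProteinFx, the genes called lower with RNY1-/- fluid were 1 of 7 NF-kB genes (Nfkbiz at -1.43), 3 of 7 inducer genes (Il1a at -2.07, Il1b at -2.74 and Tnf at -1.35), 2 of 3 CXC chemokines (Cxcl10 at -2.36 and Cxcl11 at -2.90) and 2 of 4 neutrophil factors (Ccl3 at -1.18 and Ccl4 at -1.10), beside 1.17% of all genes. Cxcl11 entered only fits that hold RNY1+/+ ProteinFx, where it is high, so its call is a description. Cxcl9 was called higher (1.35 ± 0.21, adjusted p 0.0029), beside 0.659% of all genes. In the interaction, Nfkbiz (-1.58), Il1a (-1.58), Il1b (-1.54) and Cxcl10 (-2.85) were called in the direction of Cxcl3, and Rela (1.29), Cxcl9 (1.56) and Alox5ap (1.06) in the other. The epithelial markers Krt8 (-1.76, adjusted p 0.023) and Krt18 (-1.50, adjusted p 0.046) were called in the direction of Cxcl3 too, and Krt8 was called higher with RNY1-/- than with RNY1+/+ EVFx (1.13, adjusted p 0.0095). Their group means were 2.91 to 6.46 CPM and 4.72 to 9.32 CPM, and their part in these results was not tested.

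The calls of these related genes were also taken without either pair of RNY1-/- ProteinFx libraries. Between genotypes with ProteinFx, all 9 were still called without replicates 1 and 2 and without replicates 3 and 4. Of the 7 called in the interaction, 3 were still called without replicates 1 and 2 (Nfkbiz, Cxcl9 and Cxcl10) and 6 without replicates 3 and 4, where Il1b was lost. Of the 10 called in RNY1-/- ProteinFx against PBS, Il1b was under the filter without either pair, and Rela (-0.79) and Alox5ap (-0.86) were not called without replicates 3 and 4.

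Genes most like each chemokine gene over the 20 libraries were taken by Pearson's r of log2(CPM + 1) among 10640 genes with a mean of at least 3 CPM, leaving out the 5 members. For Cxcl2 they were Gsap (r = 0.985), Nfkbia (0.983) and St7 (0.982). For Cxcl3 they were Osbpl3 (0.982), Ptgs2 (0.980), the gene for the inducible cyclooxygenase, and Gsap (0.980). Cxcl1 was closest to the predicted gene Gm50083 (0.968), Treml4 (0.959) and Susd2 (0.959). Cxcl16 was closest to C3 (0.975), the central complement component, Tap1 (0.975), a peptide transporter for antigen presentation, and Atf4 (0.974), a stress-response transcription factor. The best match of the scarce Cxcl5 was at r = 0.796 (Zng1). The points share 5 treatments and the depth of each library, so these values mostly restate the order of the groups.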

How the data were processed

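Gene-level values of 20 libraries (4 in each of 5 treatments) were used. Per the methods and the submitters' processing notes, the authors' provider made 3′-end libraries from polyadenylated RNA with molecular identifiers. Reads were trimmed with fastp 0.24.0, aligned with STAR 2.7.11 to GRCm39 and counted on exons and 3′ UTRs by strand with featureCounts (Subread 2.1.1), with reads of several places shared as fractions. The annotation release is not given in the sources used here. The deposited expected counts are not normalized, and the deposited CPM is the count over the library total, as checked on the values. Fractional counts (23.6% to 26.3% of genes detected) were rounded before testing.

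Low genes were removed with filterByExpr and a limit of 3 CPM on the mean of the libraries in each fit. Tests used edgeR 4.0.16 (TMM scaling, quasi-likelihood, R 4.3.3) with Benjamini-Hochberg adjustment over all genes tested. Each comparison used the 8 libraries of 2 groups, and the interaction 16. Calls needed a log2 fold change beyond 1 in size and an adjusted p below 0.05. Standard errors were taken from the fold change and its F value. Alternatives were DESeq2 1.42.0, other scalings, filters and fits, a replicate block, removal of trends with GC content and length, and leaving out libraries. The fits were tested on simulated data. The 8 macrophage, 9 neutrophil and other marker lists, the related gene lists and the 5 members were chosen with earlier results of these data known. Genes named are the members, the listed genes and, for each member, the 3 with the highest Pearson's r.

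The replicate numbers are taken from the sample titles. Deviations from group means of same-numbered libraries correlated at over 0.1 in every pair for RNY1-/- EVFx with PBS (0.129 to 0.381) and for RNY1-/- ProteinFx with RNY1-/- EVFx (0.218 to 0.399), and in no other comparison of 2 groups. Transcript sequence, length and GC content came from a GENCODE annotation of GRCm38. Besides the trends given above between genotypes with EVFx and in the interaction, fold changes fell with GC content in 3 comparisons with PBS. Spearman's rho was -0.42 for RNY1-/- EVFx, -0.46 for RNY1+/+ ProteinFx and -0.49 for RNY1-/- ProteinFx. It was -0.49 for RNY1+/+ ProteinFx against RNY1+/+ EVFx, and -0.09 to 0.16 in the other comparisons of 2 groups. No coordinates of the 2 builds were mixed.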

Additional observations from a re-analysis of the deposited data

Results flagged for a closer look

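In 25 sets of 4 libraries (5 genes in 5 groups), 2 held a library whose gap to its nearest neighbour was large against the whole range, where chance gives about 1 in 20. Cxcl2 was at 111 CPM in RNY1+/+ ProteinFx replicate 4, with 50.7 to 60.6 CPM in the other 3 libraries. Cxcl16 was at 50.1 CPM in PBS replicate 3, with 67.2 to 70.1 CPM in the others. The genotype difference of Cxcl3 differed between the fractions, by a log2 value of -2.56 in the interaction test (ProteinFx minus EVFx).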

How the results depend on the processing

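Of 169 counts of members called under other settings, 154 stayed within 1.5 times the count reported. All those against PBS and between fractions of 1 genotype did so, and the rest fell in the genotype comparisons. For RNY1-/- against RNY1+/+ EVFx, 1 member was called, 3 passed by the adjusted p whatever the fold, and 0 were called with scaling to housekeeping genes (Cxcl1 at -0.99) or with the replicate block (Cxcl1 at -0.99, adjusted p 5.3e-05), with a range of 0 to 1 over single libraries left out. Over all genes, same-numbered libraries of these groups showed no steady pairing (correlations of same-numbered deviations from -0.133 to 0.296). Cxcl1, however, was lowest in replicate 1 and highest in replicate 4 of both EVFx groups. Cxcl2 was higher in replicates 3 and 4 than in replicates 1 and 2 of both EVFx groups, and likewise of both ProteinFx groups. The labels do not say whether the numbers pair samples, and the block ended no other call of a member. For RNY1-/- against RNY1+/+ ProteinFx, 1 member (Cxcl2) was called without RNY1-/- replicates 1 and 2, where 2 were reported. For the interaction, 1 was reported, with 0 without RNY1-/- ProteinFx replicates 1 and 2, 2 without replicates 3 and 4 (Cxcl2 then at -1.34, adjusted p 0.018), and a range of 0 to 2 over single libraries left out. The settings without a pair of libraries were chosen after the data were seen, and the cause of these changes was not tested. Those settings left out RNY1-/- ProteinFx libraries only, so the groups compared then differed in their replicate numbers. Of 570 fold changes of single members, 10 changed sign, and none of those had been called. Cxcl3 between genotypes with EVFx went to -0.022 with trends of GC content and length removed, and ranged from -0.19 to 0.58 over single libraries left out. Cxcl16 in RNY1+/+ ProteinFx against EVFx went to 0.0099 with those trends removed. Cxcl16 in RNY1-/- ProteinFx against EVFx went to -0.062 with housekeeping scaling and -0.20 without ProteinFx replicates 1 and 2, and ranged from -0.030 to 0.15 over single libraries left out. In the interaction, Cxcl1 went to -0.049 without RNY1-/- ProteinFx replicates 3 and 4 and ranged from -0.022 to 0.48 over single libraries left out, and Cxcl16 went to -0.12 without replicates 1 and 2. Scaling to library totals moved the median log2 fold change of all genes to between -0.27 and 0.19 and moved the share of calls that were higher by over 10 percentage points in 6 comparisons: to 37.6%, 24.6% and 29.5% for RNY1+/+ EVFx, RNY1-/- EVFx and RNY1+/+ ProteinFx against PBS (reported as 50.1%, 40.0% and 42.0%), to 50.5% between genotypes with ProteinFx (36.1%), to 68.8% for RNY1-/- ProteinFx against EVFx (55.2%) and to 87.9% in the interaction (68.4%). Housekeeping scaling moved it to 37.9% and 44.5% for ProteinFx against EVFx from RNY1+/+ (49.6%) and RNY1-/- mice (55.2%). Depth limits Cxcl5 in every group and Cxcl1 outside EVFx, at 2 to 19 counts per library.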
